A study of Mus musculus with 4 samples.

Results

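Broad islands are the widest stretches of DNase-accessible chromatin in lymphoid tissue inducer (LTi) cells of Peyer's patches. They were chosen by width alone, as islands of 4000 bp or more outside mitochondrial DNA, and 1116 of 16581 islands (6.73%) met that rule. DNase-seq reads the ends of DNA freed by the nuclease DNase I, and each library came from 300 sorted LTi cells (lineage-negative, CD127+, KLRG1-, NK1.1-, NKp46-, CCR6+). The study held 2 Tcf7-KO libraries (Tcf7fl/fl with a Cre driver) and 2 Ctrl libraries (Tcf7+/+), all from C57BL/6 mice. The labels state no age and no pooling of mice. The deposited data are 1 table for the whole series, in which every island has 2 read counts, called peak and control in the header. No header or label ties either side to a genotype, so Tcf7-KO and Ctrl mice were not compared, and every value below describes the table.

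LTi cells are innate lymphoid cells that start the formation of lymph nodes and Peyer's patches. Short sites of open chromatin usually mark single promoters and enhancers, and long ones often cover strongly used loci, such as the genes that set a cell's identity. Immediate early genes, including Fos, Jun and Dusp1, are short genes transcribed within minutes of a stimulus. SICER, the island caller used, joins neighbouring enriched windows, so 1 broad island can hold several separate sites.

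The promoters of 6 genes inside broad islands are shown because these islands recur in the results below: 4 AP-1 subunits, the phosphatase gene Dusp1 and the LTi receptor gene Kit. Each sequence holds the 250 bases before the transcription start and the 50 bases from it on, on the gene's strand, from RefSeq (GRCm38.p6, the assembly mm10 names). Capitals mark the letters of the motifs searched.
Fos: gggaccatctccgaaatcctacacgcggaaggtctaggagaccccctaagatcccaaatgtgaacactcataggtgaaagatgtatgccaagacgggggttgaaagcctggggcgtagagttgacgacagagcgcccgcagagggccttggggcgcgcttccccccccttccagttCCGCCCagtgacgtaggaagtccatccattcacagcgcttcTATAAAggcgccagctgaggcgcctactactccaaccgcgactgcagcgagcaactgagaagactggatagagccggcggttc
Fosb: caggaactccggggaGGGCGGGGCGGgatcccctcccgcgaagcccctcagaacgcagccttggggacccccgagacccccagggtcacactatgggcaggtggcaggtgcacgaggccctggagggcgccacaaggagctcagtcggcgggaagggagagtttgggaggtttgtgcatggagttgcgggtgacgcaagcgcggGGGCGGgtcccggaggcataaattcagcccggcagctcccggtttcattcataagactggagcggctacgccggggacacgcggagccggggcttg
Jun: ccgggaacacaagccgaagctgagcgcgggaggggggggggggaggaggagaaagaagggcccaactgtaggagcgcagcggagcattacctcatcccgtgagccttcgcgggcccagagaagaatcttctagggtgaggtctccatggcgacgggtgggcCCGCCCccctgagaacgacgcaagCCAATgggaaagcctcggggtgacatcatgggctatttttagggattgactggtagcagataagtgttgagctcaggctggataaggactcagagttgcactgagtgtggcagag
Junb: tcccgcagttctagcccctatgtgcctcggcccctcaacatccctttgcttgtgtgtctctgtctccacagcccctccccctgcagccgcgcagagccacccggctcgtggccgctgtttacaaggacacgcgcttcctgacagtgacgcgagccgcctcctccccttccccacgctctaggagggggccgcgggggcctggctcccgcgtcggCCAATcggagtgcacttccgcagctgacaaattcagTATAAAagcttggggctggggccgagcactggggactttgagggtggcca
Dusp1: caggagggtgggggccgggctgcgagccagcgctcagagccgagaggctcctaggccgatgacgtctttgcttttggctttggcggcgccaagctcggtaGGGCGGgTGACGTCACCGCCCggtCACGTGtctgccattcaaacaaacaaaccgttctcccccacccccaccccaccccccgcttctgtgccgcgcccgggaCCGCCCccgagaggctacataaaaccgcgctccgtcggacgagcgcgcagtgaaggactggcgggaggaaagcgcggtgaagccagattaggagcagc
Kit: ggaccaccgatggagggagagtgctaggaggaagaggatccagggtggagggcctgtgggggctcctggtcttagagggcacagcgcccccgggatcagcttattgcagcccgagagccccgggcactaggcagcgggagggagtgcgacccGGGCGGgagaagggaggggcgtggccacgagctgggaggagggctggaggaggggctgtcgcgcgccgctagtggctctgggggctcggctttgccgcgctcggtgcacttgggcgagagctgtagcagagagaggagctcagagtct
Fos (chr12:85473640-85473939, + strand) had TATAAA at position -33 and CCGCCC, the GC box on the opposite strand, at -74, counted from the start (the transcript's first base is 1). Fosb (chr7:19309996-19310295, - strand) had only GC boxes, 3 of them, of which 2 overlap. Jun (chr4:95052173-95052472, - strand) and Junb (chr8:84978699-84978998, - strand) each had a CCAAT box, at -65 and -36, and Junb had TATAAA at 1. Dusp1 (chr17:26508423-26508722, - strand) had the cAMP response element TGACGTCA at -143 and an E-box, CACGTG, at -126. Kit (chr5:75574737-75575036, + strand) had 1 GC box at -98. None of the 6 windows held the searched letters of an AP-1, TCF/LEF, NF-kB, ETS, RUNX, NRF1 or ROR motif. A match is a description of letters, not a bound site.

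Because width chose them, the broad islands necessarily took up a larger share of the accessible sequence than of the islands. They covered 5.45 of 34.2 Mb (15.9%) and held 60616 of 417399 peak-side reads (14.5%) and 102922 of 631825 control-side reads (16.3%). Their median width was 4600 bp (interquartile range 4200 to 5200, largest 38600), against 1800 bp (1200 to 2400) for the 15465 islands under 4 kb. Most were only just past the threshold, since 372 reached 5000 bp, 136 reached 6000 bp and 27 reached 8000 bp. Just inside it, the 209 islands of 4000 bp had a median of 26 peak-side and 41 control-side reads, or 6.5 and 10.3 per kb. Just outside it, the 270 islands of 3800 bp had 25 peak-side and 39 control-side reads, or 6.58 and 10.3 per kb, so nothing in the read density marks the threshold itself. By chromosome the broad share was mostly between 5.22% (68 of 1303 on chromosome 2) and 8.69% (57 of 656 on chromosome 13). It was lower on chromosome 16 (20 of 525) and on X (4 of 239), and the Y chromosome held 1 broad island of 10.

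Breadth came with more reads per island and fewer reads per kb. The medians for broad islands were 30 reads on the peak side (quartiles 21 and 46) and 49 on the control side (30 and 74), against 17 (12 to 26) and 26 (16 to 42) in islands under 4 kb. Per kb these were 6.37 peak-side reads (4.44 to 9.29) and 10.3 control-side reads (6.35 to 15.5) in broad islands, against 10.9 (7.22 to 16.9) and 16.1 (9.17 to 26) in islands under 4 kb. No listed island had fewer than 8 peak-side reads, so the lowest possible density is higher for a narrow island, and the lower density of broad ones is in part set by the rule. Along the width classes the median peak-side density was 20 reads per kb below 1 kb of width, then 11.7, 8.46, 6.67, 6.25 and 6.07 in classes up to 6 kb. It was higher again at 6 to 8 kb (7.17) and at 8 kb or more (7.67, 27 islands).

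**Figure D1:**
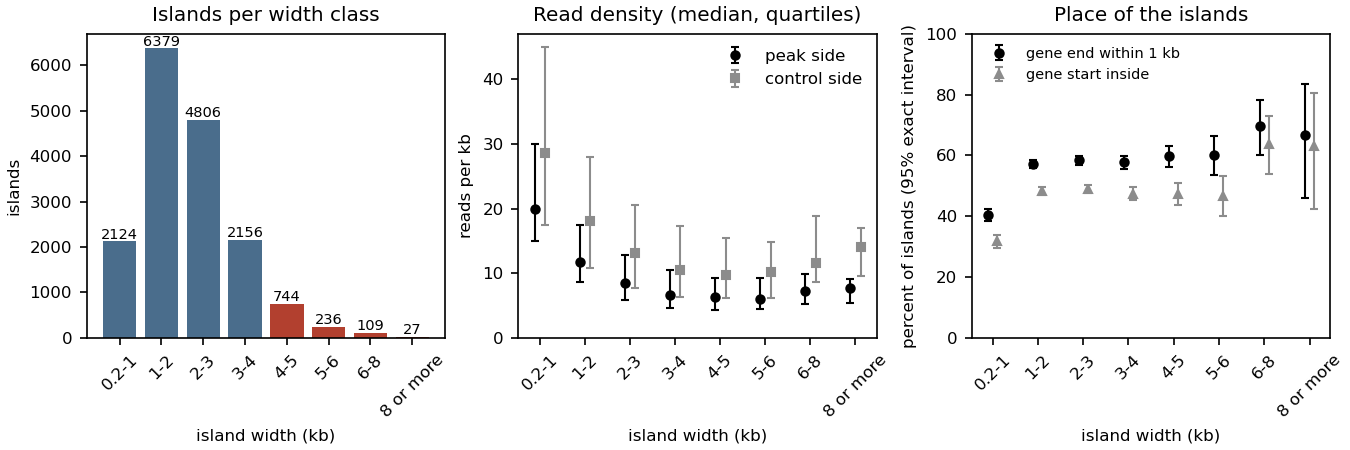
Left, number of islands per width class, with classes of 4 kb or more in red and narrower ones in blue. Middle, median and quartiles of reads per kb on the peak side (black circles) and the control side (grey squares). Right, percent of islands with a gene end within 1 kb (circles) and with a gene start inside (triangles, chromosome 18 left out), with exact 95% intervals. Peak-side density is lowest at 5 to 6 kb (6.07 per kb), and the share at gene ends is 69.7% at 6 to 8 kb.

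The fold, peak-side reads over control-side reads scaled by 0.345, was slightly lower in broad islands. Its median was 1.89 (95% interval of the median 1.86 to 1.93) in broad islands and 2.02 (2.00 to 2.04) in islands under 4 kb. The reads that make a fold also made the island, so it is given without a test. Islands of like density showed the same order: at 5 to 10 peak-side reads per kb the medians were 1.86 for 533 broad islands and 2.07 for 5561 islands under 4 kb, and at 10 to 20 they were 1.84 (223) and 1.96 (5992). An FDR under 0.05 in the authors' deposited table was found for 972 of the 1116 (87.1%), where 82.3% of all islands had one. At an FDR under 0.01 in that table, 837 broad islands passed (64.2% of all islands did). A fold under 1 was found in 22 broad islands (1.97%), near the 1.67% of all islands. The size of the fold rests on the authors' factor. Scaled instead by the reads in all islands, the median was 0.990 in broad islands and 1.05 in all islands. At that scaling 60 of the 1116 had a recomputed FDR under 0.05, in place of 972. The share over all islands was not taken at that scaling, so the 60 is not read as particular to broad islands. The order of the folds between broad and other islands does not depend on the factor, which is the same for all.

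A small number of islands held a large part of the reads. The 4 broad islands with over 50 peak-side reads per kb held 34.3% of all peak-side and 37.1% of all control-side reads in broad islands. The island at chr9:3000001-3038600 was the widest of the table, 38.6 kb at the first listed bases of chromosome 9. It had 11153 peak-side and 16720 control-side reads (289 and 433 per kb, fold 1.93), and the nearest protein-coding gene, Alkbh8, lay 296631 bp away. The densest, chr14:19415601-19419800, had 6125 peak-side and 8849 control-side reads (1458 and 2107 per kb, fold 2.01), 113900 bp from its nearest gene, Gm2244. The island at chr17:39843001-39849800 held Rn18s-rs5, annotated as an 18S ribosomal RNA pseudogene, and had 3037 peak-side and 11347 control-side reads. Its fold was 0.776 (95% counting interval 0.746 to 0.808). The last, chr17:13547001-13553400 over the long noncoding RNA gene 2700054A10Rik, had 495 peak-side and 1242 control-side reads, for a fold of 1.16 (1.04 to 1.28).

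These islands set the sums but not the medians. Without them the broad islands held 10.04% of peak-side reads in place of 14.5%, and the pooled fold was 1.78 (1.76 to 1.81) in place of 1.71 (1.69 to 1.73). The median density stayed at 6.36 peak-side reads per kb. For comparison, the pooled fold of islands under 4 kb was 1.96 (1.95 to 1.96). Whether repeated sequence or copy number adds to these counts was not tested. Among islands at genes the densest was that of Mnt, a Max-binding repressor, with 132 peak-side and 182 control-side reads (30 and 41.4 per kb). Ing1, a chromatin reader of the p53 pathway, followed with 122 peak-side and 192 control-side reads (29 and 45.7 per kb), and the circadian gene Per1 had 103 peak-side and 122 control-side (25.8 and 30.5 per kb, fold 2.45, 1.87 to 3.21).

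**Figure D2:**
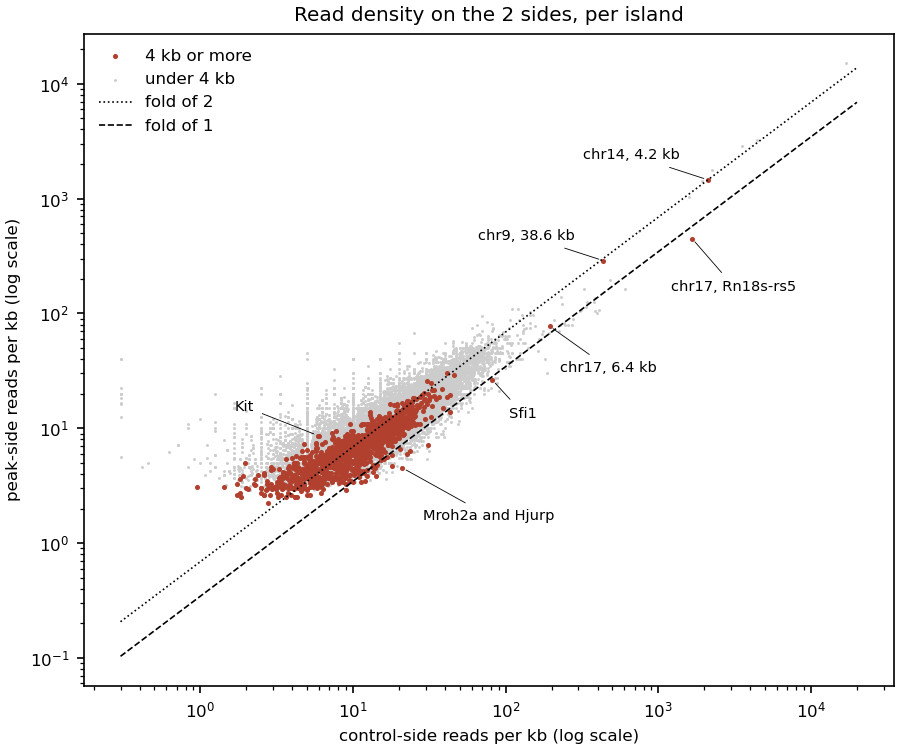
Peak-side against control-side reads per kb for each island, both on log scales, with islands of 4 kb or more in red and those under 4 kb in grey. Lines mark folds of 2 (dotted) and 1 (dashed) after the authors' scaling, and islands under 4 kb with almost no control-side reads are drawn at the left edge of the cloud. Most broad islands lie in the lower part of the cloud, 4 lie far above it in density, and Kit stands left of the fold of 2 while Sfi1 and the Mroh2a and Hjurp island lie at or right of the fold of 1.

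Most broad islands touched the end of a gene. Of the 1116, 680 (60.9%, exact 95% interval 58.0 to 63.8) had a protein-coding gene's end within 1 kb, 257 (23.03%) lay inside a gene and 179 (16.0%) between genes. The shares for islands under 4 kb were 55.3%, 24.4% and 20.3%. A wide island reaches a gene end more easily, and measured from the island's centre the order was the opposite: 33.2% of broad islands and 49.0% of islands under 4 kb were centred within 1 kb of a gene end. By centre, 45.2% of broad islands lay inside a gene, against 29.3% of islands under 4 kb. Islands more than 50 kb from any gene end were as frequent among broad islands (7.62%) as among those under 4 kb (7.64%). Broad islands stood closer to other islands: 328 (29.4%, 26.7 to 32.2) had a neighbour within 5 kb, against 22.0% (21.3 to 22.7) of islands under 4 kb.

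Density followed location. Broad islands at gene ends had medians of 36 peak-side and 61 control-side reads (7.69 and 12.8 per kb) and a fold of 1.82. Those inside genes had 23 peak-side and 31 control-side reads (4.75 and 6.43 per kb) and a fold of 2.13, and those between genes had 22 peak-side and 32 control-side (4.76 and 7 per kb) and a fold of 2.06. The gene-end islands were thus the densest on both sides and had the lowest fold. The intervals of the median fold were 1.77 to 1.84 at gene ends, 2.03 to 2.30 inside genes and 1.93 to 2.20 between genes.

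Transcription starts were known for 17492 protein-coding genes, with none on chromosome 18. A start lay inside 534 of 1088 broad islands (49.1%, 46.1 to 52.1) and inside 46.0% (45.2 to 46.8) of 15011 islands under 4 kb. Starts of 2 or more genes lay in 68 broad islands (6.25%) and in 4.88% of islands under 4 kb. A wide island can hold a start more easily, so neither share is read apart from width. The widest of these 68 (8200 bp) held the starts of Dedd2 and Zfp526 and had 82 peak-side and 128 control-side reads. The island of Brd2, a bromodomain reader of acetylated histones, and H2-DMa, a chaperone subunit of MHC class II loading, had 82 peak-side and 165 control-side reads. One of only 2 with 3 starts held H2-Ke6, Rxrb and Slc39a7 (59 peak-side and 120 control-side reads, fold 1.43).

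Around a start, broad islands reached further in both directions by similar proportions. Upstream and downstream reach together make up the island, so the longer reach follows from the width rule. In 327 broad islands over the start of 1 gene with 1 listed start, the median reach was 2081 bp upstream and 2594 bp downstream. In 4800 islands under 4 kb it was 730 bp upstream and 923 bp downstream. The median share of the island lying downstream was 55.9% in broad islands and 56.1% in islands under 4 kb. Single genes varied widely about it: 91.8% of the 11600 bp Fosb island lay downstream of the start, 85.2% of the Jund island, 80.5% of the Dusp1 island and 46.8% of the Jun island.

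Whole genes lay inside 48 broad islands (4.30%, 3.19 to 5.66) and inside 83 islands under 4 kb (0.537%). A wide island can hold a longer gene, so the share itself follows from width. The genes named here were chosen after the values were seen, and no function was tested. They include the immediate early genes Fos, Fosb, Junb and Ier2, and Jund, a further AP-1 subunit gene. Dusp1 and Socs1, feedback inhibitors of MAP kinase and of cytokine signalling, and Gadd45g, a stress gene, were among them. Actb, Pfn1, Cfl1 and Tmsb10, all of the actin cytoskeleton, the ribosomal protein genes Rpl41 and Rpl26, and histone genes (H1f0, H4c4 and 2 clusters) were also held whole. Ltb, the lymphotoxin subunit LTi cells use to induce lymphoid tissue, Tnfrsf25, the death receptor DR3, and Cd52 were there too, as were Neurog2, a neuronal factor, Tbcc, a tubulin-folding cofactor, Vps28, of endosomal sorting, and others of no shared role. The 48 islands had medians of 40 peak-side and 71.5 control-side reads (8.55 and 15.5 per kb) and a fold of 1.69. Actb had 107 peak-side and 181 control-side reads, Socs1 had 96 peak-side and 129 control-side (fold 2.16, 1.64 to 2.83) and Ltb had 36 peak-side and 56 control-side (fold 1.86, 1.19 to 2.88).

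Each broad island was then given to its nearest protein-coding gene, with ties kept. This named 1183 of 21887 protein-coding genes (5.41%), or 9.87% of the 11980 genes nearest to any island. Of these genes 1100 had 1 broad island, 77 had 2, 4 had 3 (Espn, Nol4l, Sik1 and Tle3) and 2 had 4 (Pxn and Hjurp). The counts below are set beside 5.41%, and 24 gene lists with 471 matched genes were read, of which 116 (24.6%) were nearest to a broad island. A share above 5.41% was found for 21 of the 24 lists, so it is not particular to one. A nearest gene can lie far from its island, and counts that change by over 1.5 times when the island must overlap the gene or its 1 kb flank are given both ways.

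Genes of the AP-1, CREB and BATF families, bZIP factors of which only some are immediate early genes, had a broad island at 9 of 18. An island of some width was found for 17 of 18. The 12 islands had a median of 10.4 peak-side reads per kb and a fold of 1.79, against 6.37 and 1.89 over all broad islands, and 10 lay at a gene end. Jun (chr4:95049601-95055200) had 120 peak-side and 189 control-side reads, 21.4 and 33.8 per kb, and a fold of 1.84 (1.45 to 2.33). Junb (chr8:84973201-84982200, 9000 bp) had 140 peak-side and 236 control-side reads, and Jund (chr8:70697001-70702000) had 88 peak-side and 157 control-side. Fosb (chr7:19299401-19311000) had the fifth widest island of the table, with 107 peak-side and 182 control-side reads, and Fos (chr12:85472001-85478200) had 70 peak-side and 107 control-side. Both FOS genes had a further broad island between genes, 5483 bp away from Fosb (52 peak-side and 85 control-side reads) and 6727 bp away from Fos (38 peak-side and 67 control-side reads). Fosl2 had 87 peak-side and 115 control-side reads. Batf3 (41 peak-side and 52 control-side) and the small Maf genes Mafk (46 peak-side and 85 control-side) and Maff (18 peak-side and 29 control-side) completed the list. The folds of these 12 islands ran from 1.57 to 2.52.

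The list of NR4A, EGR and other immediate early genes had a broad island at 11 of 22, or at 9 where it overlapped the gene or its 1 kb flank. Its islands had a median of 10 peak-side reads per kb and a fold of 1.80. Klf13, a Krüppel-like factor, had 132 peak-side and 224 control-side reads (18.9 and 32 per kb), and Ier2 had 107 peak-side and 145 control-side (18.4 and 25 per kb). Nr4a3, an orphan nuclear receptor, had 104 peak-side and 149 control-side reads over its start (fold 2.02, 1.56 to 2.62). The island of its relative Nr4a1 lay between genes, 6302 bp from the gene, with 72 peak-side and 116 control-side reads. Egr2, a zinc-finger factor, had 43 peak-side and 81 control-side reads, and the island nearest to Klf4 was 535926 bp away, too far to be read as its own. The list of MAP kinase phosphatase, Sprouty and Spred genes, feedback inhibitors of MAP kinase signalling, also holds the kinase gene Sik1. It had a broad island at 10 of 18 (median 7.08 per kb, fold 1.90), and 3 of its 14 islands were nearest to Sik1. Dusp1 had 79 peak-side and 137 control-side reads, Dusp7 had 78 peak-side and 124 control-side, Spry2 (8000 bp) had 68 peak-side and 112 control-side, and Dusp4 had 63 peak-side and 86 control-side. An island inside Spred2 had more peak-side than control-side reads, 28 against 19, and a fold of 4.27 (2.30 to 8.1), while that of Dusp8 had 24 peak-side and 70 control-side and a fold of 0.994 (0.598 to 1.60). The mRNA decay regulators, which limit such transcripts, had one at 5 of 17, among them Zfp36l1 (84 peak-side and 159 control-side reads) and Zfp36l2 (61 peak-side and 96 control-side).

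**Figure D3:**
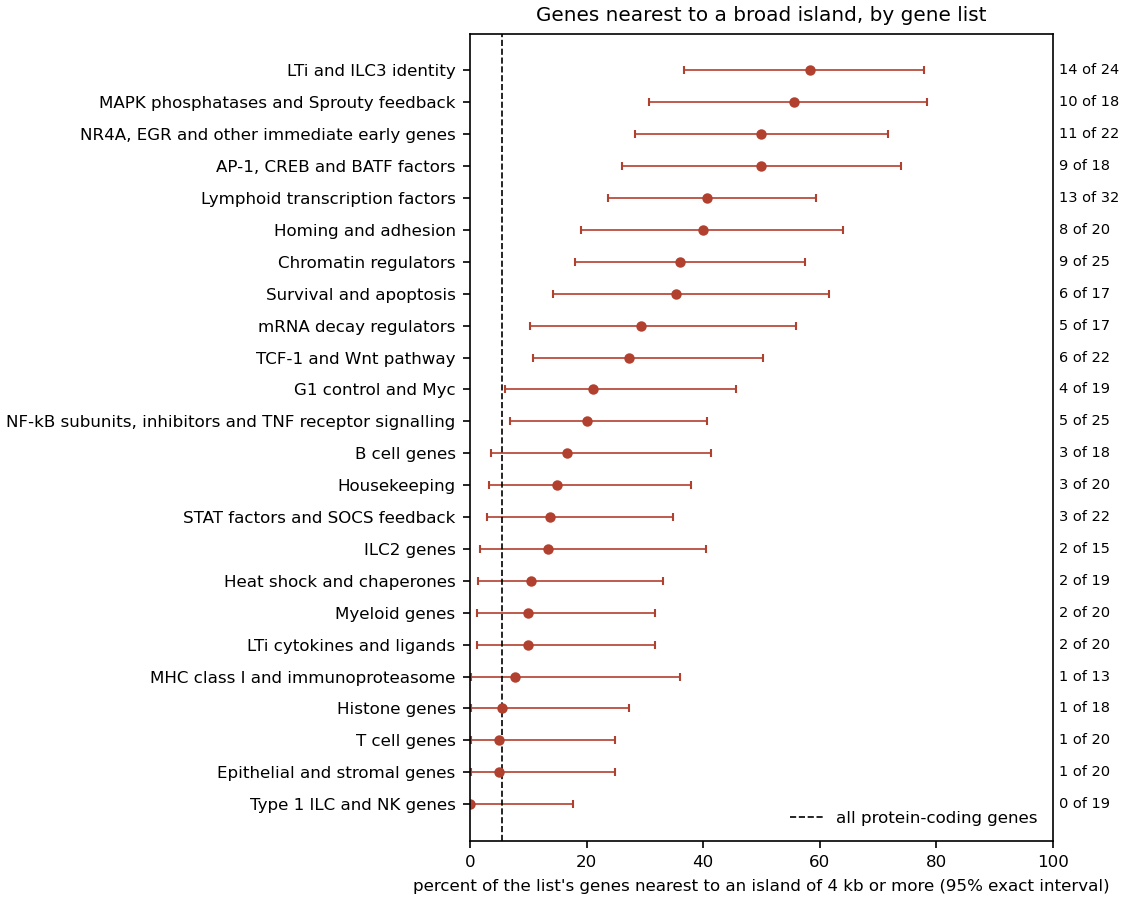
Percent of each list's genes that are nearest to an island of 4 kb or more, with exact 95% intervals and the counts at the right. The dashed line is the share of all protein-coding genes (5.41%). LTi and ILC3 identity genes (14 of 24), the MAPK phosphatase and Sprouty feedback list (10 of 18), and the AP-1 and immediate early lists are at the top. Type 1 ILC and NK genes (0 of 19) are at the bottom.

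LTi and ILC3 identity genes had a broad island at 14 of 24, and 22 of the 24 had an island of some width. Their 17 islands were of ordinary density, with a median of 6.67 peak-side and 7.62 control-side reads per kb against 6.37 and 10.3 over all broad islands. Their median fold was 2.54, against 1.89. Such a fold was not particular to this list: it was 2.55 for B cell genes (3 islands). For ILC2 genes it was 3.42 (2 islands), but the island nearest to Arg1 is on both lists. Neither ILC2 island overlapped its gene or the 1 kb flank. The median fold was lower for myeloid (2.02), T cell (1.77) and epithelial and stromal genes (1.05). Of the 17 islands 8 lay at a gene end, against 60.9% of all broad islands. The folds of those 8 ran from 1.57 (Id2) to 4.24 (Kit). Whether location bears on the fold of this list was not tested. Kit, the stem cell factor receptor, had 38 peak-side and 26 control-side reads (8.64 and 5.91 per kb) and a fold of 4.24 (2.51 to 7.27) at chr5:75572801-75577200. Il1r1, an interleukin-1 receptor, had 27 peak-side and 23 control-side reads (fold 3.40, 1.88 to 6.22), and Runx3, a RUNX factor of innate lymphoid cells, had 40 peak-side and 41 control-side (fold 2.83, 1.78 to 4.49). Tnfrsf25 (chr4:152113201-152121200, 8000 bp) had 62 peak-side and 66 control-side reads, for a fold of 2.72 (1.90 to 3.91), and an island inside Rora, which encodes the nuclear receptor RORα, had 26 peak-side and 29 control-side (fold 2.60, 1.47 to 4.57).

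Transcription factors made up much of this list. Gata3, needed by all innate lymphoid cells with the interleukin-7 receptor, had 67 peak-side and 80 control-side reads (fold 2.43, 1.73 to 3.40), Maf had 61 peak-side and 81 control-side (fold 2.18) and Nfil3, an early factor of the lineage, had 54 peak-side and 76 control-side (fold 2.06). Id2, the inhibitor of E proteins required for innate lymphoid cells, was nearest to a broad island over the gene and to another far from it. Over the gene, chr12:25095601-25099800 had 58 peak-side and 107 control-side reads, for a fold of 1.57 (1.12 to 2.18). The other, chr12:25188601-25192800, lay between genes, 92509 bp away, too far to be read as its own. It had 36 peak-side and 25 control-side reads, for a fold of 4.18 (2.44 to 7.26). Runx1 had 26 peak-side and 77 control-side reads at a start (fold 0.979, 0.602 to 1.55) and 15 peak-side and 21 control-side inside the gene (fold 2.07, 0.994 to 4.22). The islands nearest to Arg1 (13 peak-side and 9 control-side reads) and the farther one of Ets1 lay 87331 and 180581 bp away.

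Lymphoid transcription factors had one at 13 of 32 (median 7.67 per kb, fold 1.96). Foxo3 had 102 peak-side and 148 control-side reads, the densest of them at 19.6 and 28.5 per kb. Bcl6, a repressor required for germinal centre and follicular helper cells, had a 9000 bp island with 69 peak-side and 124 control-side reads. Nfatc2, a calcium-responsive factor, had a 9600 bp island inside the gene with 50 peak-side and 71 control-side reads. Bach1 had 52 peak-side and 55 control-side reads and the largest fold of the list (2.74, 1.84 to 4.08), and Foxo1 had 34 peak-side and 82 control-side and the lowest (1.20, 0.782 to 1.81). Homing and adhesion genes had one at 8 of 20, at a lower median density of 3.78 per kb, but at 5 of 20 by overlap with the gene or its 1 kb flank. The islands nearest to Cxcr4 (37399 and 119902 bp away), Cd83 (44312 bp) and Cd9 (34466 bp) lay far off. Gpr183, the oxysterol receptor that positions LTi cells, had neighbouring islands with 44 peak-side and 49 control-side reads (fold 2.60, 1.69 to 4.0) and with 32 peak-side and 21 control-side reads (fold 4.42, 2.47 to 8.06). The lists of the cytokines and ligands of LTi cells (2 of 20, Ltb and Lif) and of STAT and SOCS genes (3 of 22) had few broad islands. By overlap with the gene or its 1 kb flank the STAT and SOCS count was 1, Socs1, since the island nearest to Jak1 lay 24319 bp away and that of Cish lay between genes. In the TCF-1 and Wnt list, the pathway of the gene deleted in Tcf7-KO mice, 6 of 22 had one. Its corepressors led it, with Tle3 at 76 peak-side and 129 control-side reads and Tle1 at 67 peak-side and 98 control-side, and Lef1 had 24 peak-side and 48 control-side (fold 1.45, 0.850 to 2.41). Tcf7 was nearest to none.

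Chromatin regulators had a broad island at 9 of 25, with Kdm6b at 64 peak-side and 113 control-side and at 55 peak-side and 85 control-side reads and Ezh2 at 49 peak-side and 56 control-side. Survival genes had one at 6 of 17, with Bcl2l11 at 92 peak-side and 141 control-side reads and Bcl2 at 47 peak-side and 54 control-side over its start. Of NF-kB and TNF receptor signalling genes 5 of 25 had one, as did 4 of 19 G1 and Myc genes, 3 of 20 housekeeping genes, 2 of 19 chaperone genes and 1 of 13 MHC class I and immunoproteasome genes (H2-Q4, and 0 by overlap with the gene or its 1 kb flank). A list of 18 histone genes had 1, H1f0, a linker histone made outside S phase as well. H4c4 and the histone clusters held whole by broad islands are not on that list. Of the lists of other cell types, B cell genes had one at 3 of 18, ILC2 genes at 2 of 15, myeloid genes at 2 of 20, and T cell genes and epithelial and stromal genes at 1 of 20 each. By overlap with the gene or its 1 kb flank the ILC2 and T cell counts were 0. Housekeeping genes were all nearest to some island (20 of 20), so a constantly used gene had an island without having a broad one in 17 of 20 cases.

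The labelled cell type was set against markers. Of 18 LTi and ILC3 markers, 17 were nearest to an island and 6 to a broad one (Rora, Kit, Id2, Il1r1, Ltb and Batf3), and Ccr6, used in the sort, had none. Markers of type 1 innate lymphoid cells and NK cells had a broad island at 0 of 7 and T cell markers at 0 of 8, with no island at Tbx21, Ncr1, Gzmb, Prf1, Cd3e, Cd3g or Cd8a. B cell markers had one at 3 of 8: Cd79b, a subunit of the B cell receptor, with 18 peak-side and 17 control-side reads (fold 3.07, 1.49 to 6.34), Pax5 with 22 peak-side and 25 control-side (fold 2.55, 1.37 to 4.72) and Blk with 38 peak-side and 44 control-side (fold 2.50, 1.58 to 3.96). Ms4a1 had no island. Among the ILC2 markers Gata3 and Klrg1 had a broad island, but that of Klrg1 lay between genes, 7168 bp away. Among myeloid markers Fcgr3 had one (18 peak-side and 30 control-side reads). Among epithelial and stromal markers Epcam had one (16 peak-side and 44 control-side), with a fold of 1.05 (0.556 to 1.91) and an FDR of 0.361 in the authors' deposited table. Counting islands of any width, 6 of 6 epithelial and stromal markers, 4 of 5 ILC2 and 5 of 8 B cell markers were nearest to one. So were 3 of 7 type 1 and NK, 3 of 7 myeloid and 2 of 8 T cell markers. By overlap with the gene or its 1 kb flank the type 1 and NK count was 1 and the ILC2 count 2. Over all protein-coding genes, 11980 of 21887 were nearest to an island of any width and 5.41% to a broad one. Any part of other cells in these islands was not tested, and with a table of pooled reads more cells and more signal per cell cannot be told apart.

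The letters of promoters inside broad islands differed in 1 main way from those inside narrower ones. The first start of each gene inside an island was used, with 603 genes in broad islands, 7499 in islands under 4 kb and 17492 in all. The ETS motif CCGGAAG, searched as all others on both strands, was in 9.78% (7.53 to 12.4) of promoters in broad islands, against 22.2% (21.3 to 23.2) in islands under 4 kb and 11.9% of all. Its share followed width in order: 25.9% for genes whose widest island over a start was under 1 kb, then 24.7%, 20.3%, 17.4% and 12.2% in 1 kb classes up to 5 kb. It was 5.04% (1.87 to 10.7) at 5 to 6 kb and 5.43% (1.79 to 12.2) at 6 kb or more, near the 3.98% of the 9390 genes with no island over a start. Base composition was not matched between these groups. The 9390 promoters had a median ratio of observed to expected CpG of 0.253 and 50% GC. The values were 0.788 and 63% at 5 to 6 kb and 0.752 and 63.5% at 6 kb or more. With genes of 1 listed start alone the shares were 10.2% (7.45 to 13.4) for broad islands and 22.9% (21.9 to 24.0) for islands under 4 kb.

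Base composition differed less. The median ratio of observed to expected CpG was 0.792 (0.764 to 0.815) in promoters of broad islands and 0.812 in those of islands under 4 kb, against 0.576 over all promoters. GC content was 64% in broad islands and 62% in islands under 4 kb, against 56.3% over all. CCAAT was in 34.8% (31.0 to 38.8) of promoters in broad islands, in 40.6% under 4 kb and in 39.0% of all. This CCAAT difference was seen at 4 to 5 kb (31.6%) and not at 5 to 6 kb (41.2%) or 6 kb or more (40.2%), and with genes of 1 listed start the shares were 37.1% (32.5 to 41.9) in broad islands and 41.5% (40.2 to 42.7) under 4 kb, whose intervals overlap. The GC box GGGCGG was in 71.6% in broad islands, 70.8% under 4 kb and 46.3% of all. For the other motifs the interval of the broad share held the value of islands under 4 kb. The AP-1 letters TGACTCA were in 3.32% in broad islands, 2.65% under 4 kb and 4.58% of all, and the cAMP response element TGACGTCA in 2.49% in broad islands, 3.92% under 4 kb and 2.34% of all. The TCF/LEF letters CTTTGAA or CTTTGAT, read by the factor family of TCF-1, were in 5.14% in broad islands, 5.63% under 4 kb and 7.83% of all. TATAAA was in 7.30% in broad islands, 5.75% under 4 kb and 13.3% of all, and the RUNX letters TGTGGTT in 3.15% in broad islands, 3.2% under 4 kb and 4.84% of all. The NRF1 letters GCGCANGCG were in 15.9% in broad islands, 16.7% under 4 kb and 8.83% of all, and the ROR half-site AGGTCA in 10.4% in broad islands, 10.8% under 4 kb and 14.5% of all. The E-box CACGTG was in 10.9% in broad islands, 11% under 4 kb and 7.90% of all. The NF-kB letters GGGACTTTC, GGGAATTTC or GGGGATTCC were in 0.332% in broad islands, 0.933% under 4 kb and 0.852% of all.

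**Figure D4:**
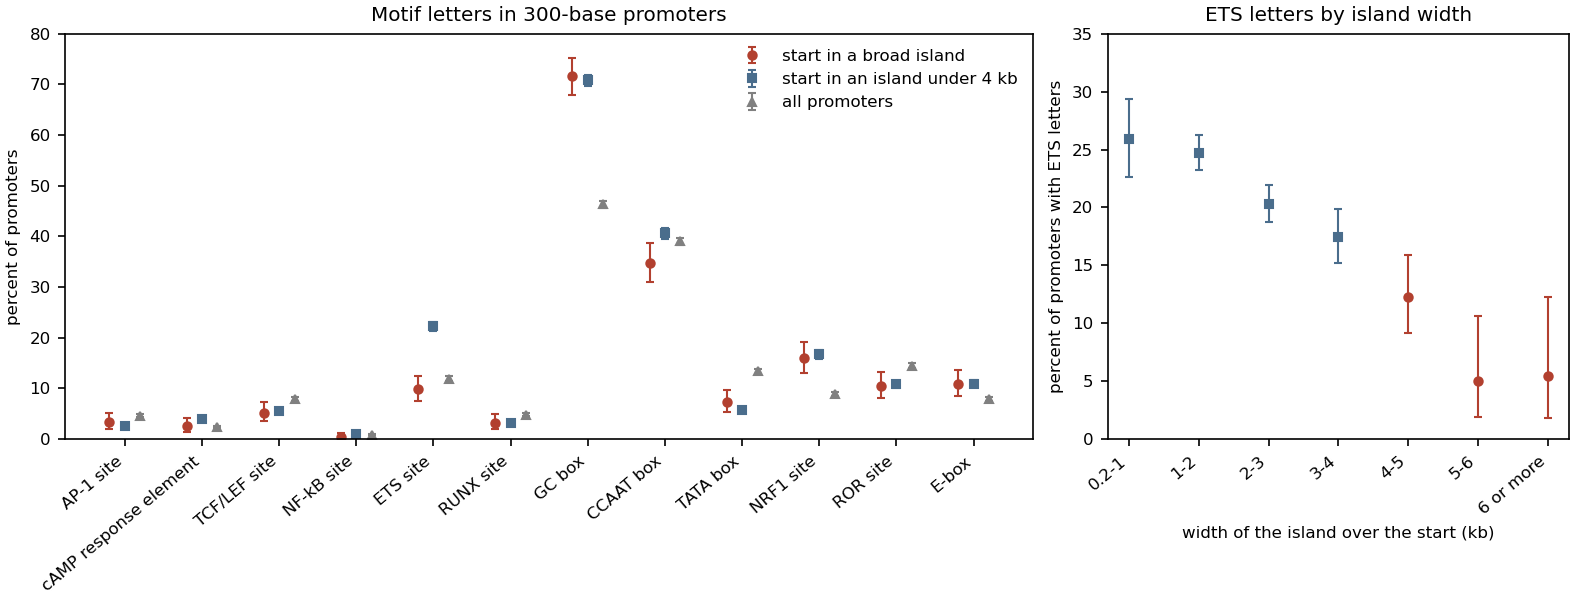
Left, percent of 300-base promoters that hold each motif, for genes with a start in a broad island (red circles), in an island under 4 kb (blue squares) and for all promoters (grey triangles). Right, the share with the ETS letters by the width of the widest island over a start of the gene, with classes of 4 kb or more in red; bars are exact 95% intervals. The ETS share is 25.9% in the narrowest class and 5.43% in the widest.

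Broad islands at tRNA genes were a small group, named after the values were seen. Transfer RNA genes lay in 15 broad islands (1.34%, 0.754 to 2.21), 44 genes in all, and in 0.582% of islands under 4 kb. A wide island can hold a tRNA gene more easily, and per Mb of island there were 8.07 tRNA genes in broad islands and 4.73 in islands under 4 kb. The group's median fold was 1.51 (1.33 to 1.83), against 1.89 over all broad islands, and 10 of the 15 were between protein-coding genes. The island nearest to Trim27, with 7 tRNA genes, had 32 peak-side and 92 control-side reads, for a fold of 1.01 (0.653 to 1.52). That of Hjv, with 4, had 50 peak-side and 109 control-side reads, and that of Trim7, also with 4, had 48 peak-side and 113 control-side. The Fcgr3 island named among the myeloid markers holds 5 tRNA genes.

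A run of 9 broad islands on chromosome 1, chosen after its values were seen, had the lowest folds. From chr1:88211801 to chr1:88309600 it crosses Ugt1a1, Mroh2a, Hjurp, which encodes the chaperone that loads the centromere histone CENP-A, and ends at Trpm8. The fold was under 1 in 7 of the 9, and 4 of them were among the 5 lowest of all broad islands. The island at Ugt1a1 had 25 peak-side and 95 control-side reads (fold 0.763, 0.471 to 1.20). Inside Mroh2a the widest of the run, chr1:88238001-88251800, had 65 peak-side and 248 control-side (fold 0.760, 0.569 to 1.00). The island at the ends of Mroh2a and Hjurp had 37 peak-side and 173 control-side (fold 0.620, 0.423 to 0.889), and one between genes had 44 peak-side and 193 control-side (fold 0.661, 0.465 to 0.921). The largest fold in the run, 1.12 (0.880 to 1.42), was that of an island over Hjurp with 99 peak-side and 256 control-side reads. The 9 islands had 13.5 to 38.8 control-side reads per kb, above the median of 10.3 for all broad islands. Elsewhere, Sfi1, which encodes a centrosome protein, had a 17.4 kb island with 457 peak-side and 1426 control-side reads, for a fold of 0.930 (0.835 to 1.03).

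The largest folds rested on few reads. The island nearest to St6gal2, 186718 bp away, had 13 peak-side and 4 control-side reads, for a fold of 9.43 (2.91 to 39.7), and that nearest to Cdyl2 had 23 peak-side and 9 control-side (fold 7.41, 3.30 to 18.2). That nearest to Cox7c had 13 peak-side and 6 control-side (fold 6.28), and that inside Mmp2 had 16 peak-side and 8 control-side (fold 5.80, 2.34 to 15.7). The sparsest broad island, inside Trerf1, had 12 peak-side and 15 control-side reads over 5400 bp, or 2.22 and 2.78 per kb. The islands inside Ptpn11 (15 peak-side and 11 control-side reads, 6000 bp) and Cdc42 (14 peak-side and 24 control-side, 5600 bp) were alike, with 2.50 peak-side reads per kb.

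Other islands among the 15 widest lay at genes of varied roles. Slc43a2, an amino acid transporter, had 91 peak-side and 142 control-side reads over 11800 bp (fold 1.86, 1.41 to 2.44). Midn, whose product midnolin promotes the breakdown of immediate early proteins, had 80 peak-side and 167 control-side over 10400 bp (fold 1.39, 1.05 to 1.82), and the corepressor gene Irf2bp2 had 89 peak-side and 194 control-side over 9800 bp (fold 1.33, 1.02 to 1.72). Meis2, a homeobox factor, had only 42 peak-side and 53 control-side reads over 10800 bp, 3.89 and 4.91 per kb. Celf2, an RNA-binding splicing regulator, had 43 peak-side and 35 control-side over 9200 bp inside the gene and a fold of 3.56 (2.23 to 5.74). Lif, a cytokine of the interleukin-6 family, had 69 peak-side and 99 control-side over 9000 bp (fold 2.02, 1.46 to 2.78). The island of Rab37 and Slc9a3r1 (8600 bp) had 64 peak-side and 123 control-side reads, and that inside Bsn (8400 bp) had 50 peak-side and 58 control-side.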

How the data were processed

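DNase-seq libraries of LTi cells (2 Tcf7-KO, 2 Ctrl) were processed by the authors with Bowtie2 2.4.2 and SICER 2.0 on genome build mm10, per the submitters' processing notes. The authors' deposited table gives islands with 2 columns of unnormalized read counts, a p-value, an FDR (q-value) and a fold ratio, per the file headers. The deposited fold is peak-side reads over control-side reads times 0.345, with 0.25 reads in place of 0, and the deposited p-value is the upper Poisson tail. All 16584 folds and p-values were recomputed within 1e-06. All island widths were multiples of 200 bp, and the smallest gap was 600 bp. No source used here gives the reads per library, so depth is unknown, and neither side was tied to a library.

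Coordinates were made 1-based. Islands on mitochondrial DNA (3) were left out. Genes, tRNA genes and starts came from RefSeq tables of GRCm38.p6 (21887 protein-coding genes outside mitochondrial DNA). The start table held none on chromosome 18, so those islands were left out of start shares. Of 472 list symbols, 471 matched a protein-coding gene, and 12 genes were on more than 1 list. Gene positions had no strand, so a gene end is either end.

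Intervals are exact and 95%: Clopper-Pearson for shares and folds and order-statistic for medians. Those of single and pooled folds cover the counting error of reads only. Those of shares and medians treat islands or genes as independent draws, which neighbouring islands need not be. None covers the spread between mice or libraries, because the table has no replicates. Without molecular identifiers 2 reads can stem from 1 molecule. Counts by island describe the table and are not replicates. Named islands were the 15 widest, the 10 densest and 10 sparsest by peak-side reads per kb, the 5 largest and 5 smallest folds, the 10 widest between genes, the 10 widest with 2 or more starts, and up to 6 genes per list by width; the other list members and islands named were chosen after their values were seen or are markers. The broad islands, the lists and the motifs were chosen with earlier results of these data known. The Cre driver and some genes these rules select are not reported here. No model of counts per library was run, because no column holds a library. Python 3.11.15, numpy 2.4.6, scipy 1.17.1, pandas 2.3.3 and matplotlib 3.10.9 were used, and the scripts were tested on simulated data.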

Additional observations from a re-analysis of the deposited data

How the results depend on the processing

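No paired analysis was possible because no column of the table holds a single library, which also kept any library from being left out. The number of broad islands depends on the threshold: 3272 islands reached 3000 bp and 372 reached 5000 bp, and genes on the lists with one numbered 211 and 56, in place of 116. The share at gene ends, 60.9%, was 64.4% within 2 kb, 70.3% with all RefSeq genes and 33.2% from island centres. The median density was 6.71 peak-side reads per kb among islands called in the authors' deposited table, and the control-side median was 10.9 at 5000 bp or more. The pooled fold of 1.71 was 1.66 without the island of most reads and 1.78 without the 4 densest, the last chosen after seeing the data. Scaled by the reads in all islands, the pooled fold was 0.894, the median 0.990 and the number of broad islands called 60, a count not taken over all islands. Scaled by the median ratio of the sides, the folds were 0.851 and 0.942. Folds under 1 then numbered 574 and 669 of the broad islands, in place of 22. The median fold of all islands was 1.05 and 1 at these scalings. The share of all islands under 1 was not taken there, so these counts are not read as particular to broad islands. These shifts follow from the factor itself, so no direction between the sides is read from the table. The other 17 alternatives of these results stayed within their intervals or, for counts, within 1.5 times the count given (for example 872 and 972 in place of 1116 broad islands with at least 20 peak-side reads or an FDR under 0.05, and 837 in place of 972 at an FDR under 0.01). For single lists and promoter shares 40 alternatives moved the value and 45 did not. Islands with under about 20 reads on a side have folds with wide intervals.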
